A study of Mus musculus with 19 samples.

Results

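The clustered histone genes are the genes of the mouse Hist1, Hist2, Hist3 and Hist4 clusters. Members were all rows of the deposited exon count table whose symbol starts with Hist1h, Hist2h, Hist3h or Hist4h, and there were 69 of them among 25124 genes. By class, 6 encode linker histone H1, 19 encode H2A, 19 encode H2B, 12 encode H3 and 13 encode H4. By symbol, 55 members belong to Hist1 on chromosome 13 and 10 to Hist2 on chromosome 3. Hist3 on chromosome 11 holds 3 and Hist4 on chromosome 6 holds 1. Hist1h2al is listed from position 51200084, far from the other Hist1 rows, whose listed starts run from 21715711 to 23934437. The annotation column marks Hist1h2al and Hist3h2bb-ps as pseudogenes.

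C57BL/6 mice gave 2 kinds of blood precursor for the study, the hematopoietic stem cell (HSC) and the lymphoid-primed multipotent progenitor (LMPP), each taken from fetal liver at E14.5 (days of gestation) or from bone marrow of adults aged 12 weeks. HSC were sorted as cKit+ Sca1+ CD48- CD150+ Flt3- and LMPP as cKit+ Sca1+ CD48+ CD150- Flt3+, after removal of cells with CD3, Gr1, B220 or Ter119, and CD11b is listed among the removed markers for adult marrow only. No genetic change or treatment is given for any group. RNA was measured in 3 adult HSC, 2 fetal HSC, 3 adult LMPP and 3 fetal LMPP libraries, which the series design calls biological replicates without saying how many animals each came from, and open chromatin was measured by ATAC-seq in 2 libraries of each group.

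Replication-dependent histones package newly made DNA. Their genes lie in clusters, mostly lack introns, and are transcribed mainly in S phase. Most of their mRNAs end in a stem-loop bound by the protein Slbp instead of a poly(A) tail, while replication-independent variants such as H3.3 come from ordinary polyadenylated genes. H2A and H2B pair as dimers, H3 and H4 form the tetramer at the centre of the nucleosome, and H1 binds the linker DNA. The RNA kit primes with oligo-dT, so a level here is that of histone RNA which such priming can copy. In bulk samples, fewer cells that express a gene and less RNA per cell cannot be told apart.

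Sequence is shown for 5 members because their levels carry the patterns described below. They are Hist1h2ap, the row of highest level per kilobase of exon, and a pair of H2B genes higher in fetal HSC and in adult LMPP. The others are the linker gene Hist1h1c and the H3 gene Hist2h3b, which was higher in LMPP at both ages. Hist1h2ap and Hist1h1c were chosen for this after their values were seen. Each line gives the 150 bases before the RefSeq start site, 5′ to 3′ on the gene's own strand (build GRCm38.p6). Capitals mark the 4 motifs searched on both strands, namely the TATA box TATAAA, the pentamer CCAAT, the octamer ATTTGCAT and the heptamer AAACACA, each read also as its reverse complement. The stretches lie at chr13:21833476-21833625 on the minus strand for Hist1h2ap, and on the plus strand at chr13:23571250-23571399 for Hist1h2bg, chr13:22035671-22035820 for Hist1h2bk, chr13:23738657-23738806 for Hist1h1c and chr3:96268504-96268653 for Hist2h3b.
Hist1h2ap: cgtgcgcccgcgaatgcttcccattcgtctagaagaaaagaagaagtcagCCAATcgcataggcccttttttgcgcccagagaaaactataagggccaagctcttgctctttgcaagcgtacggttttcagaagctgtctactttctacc
Hist1h2bg: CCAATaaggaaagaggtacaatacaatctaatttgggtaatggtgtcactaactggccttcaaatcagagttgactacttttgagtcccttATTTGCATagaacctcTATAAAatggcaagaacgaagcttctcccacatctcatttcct
Hist1h2bk: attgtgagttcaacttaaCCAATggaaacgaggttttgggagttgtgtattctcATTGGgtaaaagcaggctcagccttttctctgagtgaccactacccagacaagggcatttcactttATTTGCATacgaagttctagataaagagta
Hist1h1c: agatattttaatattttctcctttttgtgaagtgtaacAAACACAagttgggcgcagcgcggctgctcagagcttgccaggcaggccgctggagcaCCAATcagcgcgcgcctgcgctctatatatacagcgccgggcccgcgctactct
Hist2h3b: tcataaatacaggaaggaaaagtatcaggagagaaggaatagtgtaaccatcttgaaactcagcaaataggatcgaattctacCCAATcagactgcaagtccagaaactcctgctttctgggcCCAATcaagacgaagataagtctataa
Hist1h2bg held the TATA box, the pentamer and the octamer in this stretch, whereas Hist1h1c held the pentamer and the heptamer and Hist2h3b only the pentamer.

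RefSeq promoters, from 250 bases before to 50 bases after the start, were found for 62 of the 69 members. CCAAT on either strand was in 85.5% of them and in 37.4% of all 32851 promoters in the table. All promoters found for H1, H2A, H2B and H3 members held it, but only 3 of 12 H4 promoters did. TATAAA was in 56.5% of member promoters and 13.6% of all promoters. ATTTGCAT, the octamer bound by Oct factors, was in 7 of 18 H2A and 6 of 16 H2B promoters and in no H1, H3 or H4 promoter, against 1.7% of all promoters. AAACACA was in 5 of 6 H1 promoters, against 7.2% of all. Many H2A and H2B genes stand head to head and share 1 promoter region, so these counts are not of independent sequences, and a match is a description only.

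Levels are given as CPM, the counts of a gene scaled to a common library total after TMM scaling. Library totals ran from about 19799400 to about 64783900 counts, so that 3 counts, taken as the limit of detection, correspond to 0.0463 to 0.152 CPM. The third principal component of all genes held 10.4% of the variance. Its lowest scores were -89.1 (adult HSC 3), -57.5 (fetal LMPP 1) and -24.5 (adult LMPP 3). These are the 3 libraries said below to have stood apart. The component does not single them out alone. Adult LMPP 1 and adult LMPP 2 lay at its other end, at 49.5 and 51.4, and were not dropped with them. The remaining libraries ran from -5.96 to 21.7. Markers of the sorted identities were in part in the direction of the gates. All 7 tested HSC markers were lower in LMPP than in HSC at both ages, by sign alone, while 5 of 7 LMPP markers were positive in adult marrow and 4 of 7 in fetal liver. Kit and Ly6a are in both lists and are not specific to either gate. They were the 2 negative LMPP markers in adult marrow, and were negative in fetal liver together with Dntt. Dntt, a lymphoid polymerase, averaged 1348 CPM in adult LMPP and 0.00 in fetal LMPP. Flt3, the cytokine receptor of the LMPP gate, was higher in LMPP than in HSC by 6.19 in adult marrow and 4.08 in fetal liver on the log2 scale (edgeR adjusted p = 6.1e-07 and 4.5e-05), and Procr, a stem cell surface receptor, was lower by 2.44 and 4.12 (adjusted p = 0.0034 and 0.00071).

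Members took between 0.417% and 1.51% of the counts of a library, and H2A rows made up 94.6% to 97.4% of the member counts. Per kilobase of exon, and averaged over the 4 group means, Hist1h2ap stood at 5190 CPM per kilobase and Hist1h2ao at 4374. In CPM alone Hist1h2ao was the higher (2401 against 2333), and its listed length is 549 bases against 449.5. Hist1h2ag followed at 1647, then Hist1h2ac at 1149, Hist1h2ad at 1088, Hist1h2ai at 1076, Hist1h2ah at 1048, Hist1h2an at 749, Hist1h2ae at 634 and Hist1h2ab at 605. All 10 of these rows are H2A genes of the Hist1 cluster. No tested member outside the H2A class exceeded 81.1 CPM per kilobase, the level of the H2B gene Hist1h2bc. The H4 class reached 54.7 (Hist1h4d), the H1 class 17.5 (Hist1h1e) and the H3 class 6.94 (Hist1h3d).

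**Figure D1:**
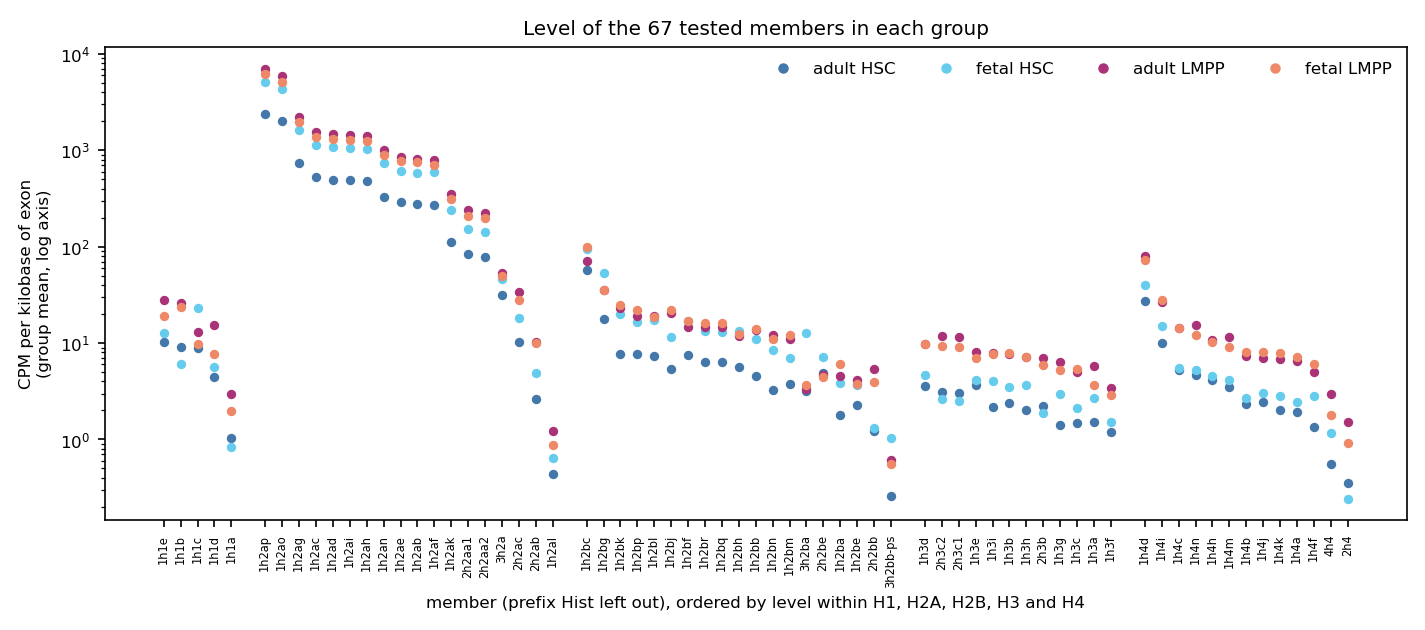
Group mean level of each of the 67 tested members in CPM per kilobase of exon (log axis), ordered within the H1, H2A, H2B, H3 and H4 classes. Hist1 H2A rows fill the top of the range, up to 5190 averaged over groups, and the adult HSC point is the lowest of the 4 for most members.

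Hist1 H2A rows moved nearly as 1 quantity, leaving out the untested Hist1h2aa and the pseudogene Hist1h2al. The ratio of each of these rows to Hist1h2ap differed between its highest and lowest library by at most 1.33 times, in Hist1h2an, over 11 libraries. With the most abundant row of a class as the reference, the median of this spread was 1.22 times over 17 H2A rows, 2.14 over 9 H4 rows, 3.16 over 16 H2B rows and 4.34 over 6 H3 rows with at least 20 counts in every library. Lower counts widen such a ratio by themselves. These H2A genes are near-identical copies, and reads of one may have been counted in another. In addition, 4 pairs of members (Hist1h2ao with Hist1h2ap, Hist1h2bq with Hist1h2br, Hist2h2aa1 with Hist2h2aa2, Hist2h3c1 with Hist2h3c2) are listed at overlapping positions. Their counts differed by at most 1.03 times, so that each pair is 1 measurement. Both rows of each pair are kept in the sums, shares and counts of members given here. In adult HSC 1, Hist1h2ao and Hist1h2ap held 41102.5 and 39936 of 168620 member counts. The strand or position listed for such rows can differ from RefSeq: Hist1h2ap is listed on the plus strand and lies on the minus strand in RefSeq. Hist1h1t, a testis linker histone, and Hist1h2aa did not pass the filter on low counts, which left 67 members tested. Their highest library values were 0.30 and 0.15 CPM.

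Summed over all members, the 3 adult HSC libraries held 5345, 3724 and 4413 CPM. The fetal HSC libraries held 11166 and 7864, the adult LMPP libraries 15129, 8851 and 15432, and the fetal LMPP libraries 8641, 12925 and 13155. Adult HSC was therefore below every other library, and the 3 other groups overlapped. The sum is mostly H2A, and the classes differed in where fetal HSC stood. H2B in fetal HSC was 244 ± 7.16 CPM (SD, n = 2), beside 124 ± 8.20 in adult HSC (n = 3), 228 ± 46.4 in adult LMPP (n = 3) and 258 ± 37.3 in fetal LMPP (n = 3). H3 measured 16.6 and 21.9 CPM in fetal HSC and 7.64 to 21.0 in adult HSC, whereas LMPP libraries held 36.1 to 67.8. H4 likewise ran from 17.1 to 39.3 CPM in HSC and from 62.4 to 108 in LMPP, with no overlap. The H2A and H2B classes thus stood near the LMPP level in fetal HSC, and the H3 and H4 classes near the adult HSC level.

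**Figure D2:**
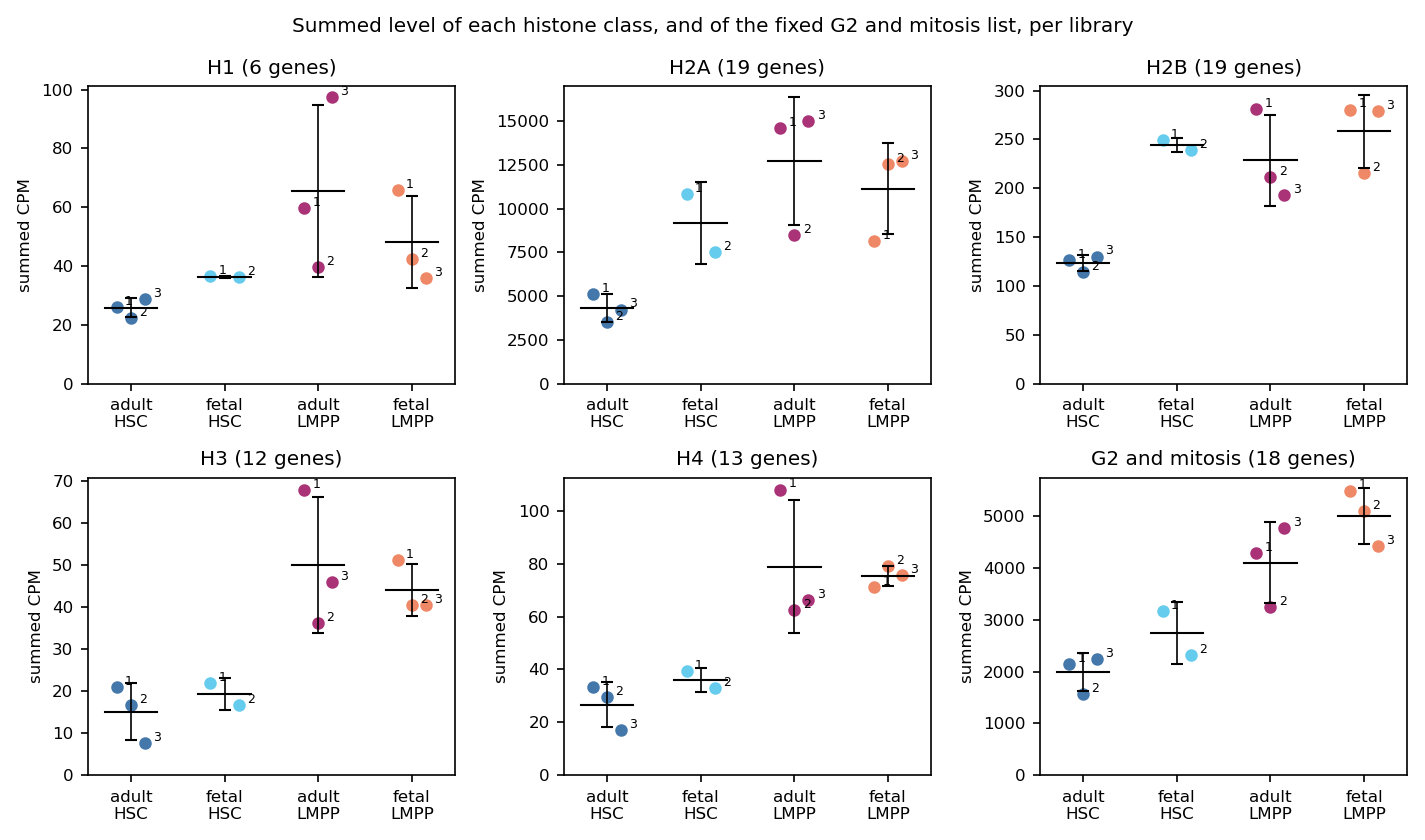
Summed CPM of each histone class and of the G2 and mitosis list per library (points, numbered by replicate), with the group mean (line) and SD (bar). H3 and H4 separate HSC from LMPP at both ages, while H2B in fetal HSC (239 and 249) lies above all 3 adult HSC libraries (114 to 130) and within the LMPP range.

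Fetal against adult HSC asks how stem cells differ with age. 6 of the 67 tested members were higher in fetal HSC and none was lower, where 2.07% of all 14720 tested genes were higher, 2.89% lower and 4.95% either. 5 of them were H2B genes (Hist1h2bg, Hist1h2br, Hist1h2bq, Hist1h2bl and Hist1h2bk, with Hist1h2bq and Hist1h2br 1 measurement) and the sixth was Hist1h1c. The median log2 difference of the members was 0.88, beside 0.00 over all genes, and 61 of 67 were positive. By class the median was 1.09 for H2A, 1.10 for H2B, 0.44 for H3, 0.31 for H4 and 0.30 for H1.

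Hist1h2bg, an H2B gene, measured 8.56, 8.46 and 7.41 CPM in adult HSC and 26.1 and 23.3 in fetal HSC. Both fetal libraries were above all others of the series, LMPP included. The log2 difference was 1.60 ± 0.27 (SE, edgeR adjusted p = 0.0065). Hist1h1c, which encodes linker histone H1.2, measured 7.51, 7.09 and 4.52 CPM in adult HSC and 14.6 and 18.7 in fetal HSC, again the highest of all libraries. Its log2 difference was 1.39 ± 0.31 (adjusted p = 0.027). The other linker genes did not follow: Hist1h1a differed by -0.30, Hist1h1b by -0.60, Hist1h1d by 0.37 and Hist1h1e by 0.30, with adjusted p from 0.70 to 0.89.

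Hist1h2bk measured 4.72, 3.16 and 3.52 CPM in adult HSC and 11.01 and 8.90 in fetal HSC, a log2 difference of 1.39 ± 0.33 (adjusted p = 0.039). Hist1h2bl differed by 1.24 ± 0.29 (adjusted p = 0.036) and Hist1h2br by 1.04 ± 0.24 (adjusted p = 0.030). No H2A row passed the test. Hist1h2ap measured 1266, 883 and 1101 CPM in adult HSC and 2708 and 1900 in fetal HSC without overlap, with a log2 difference of 1.09 ± 0.28 and adjusted p = 0.053. In 40 of 67 members every fetal library was above every adult one, where this held for 20.8% of all genes, and in none was it the reverse (20.3% of all genes).

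**Figure D3:**
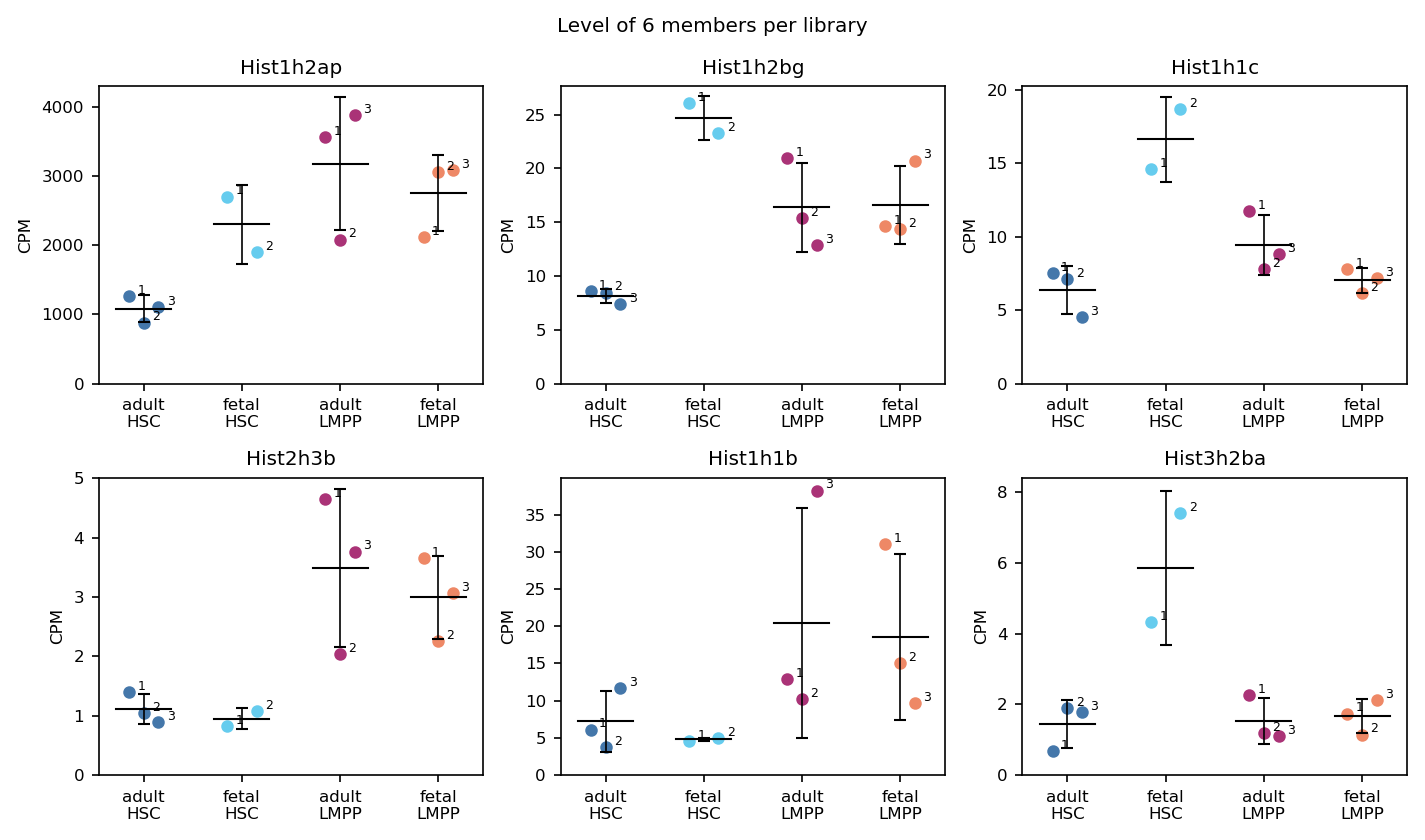
CPM of 6 members per library (points, numbered by replicate) with group mean (line) and SD (bar). Hist1h2bg and Hist1h1c are highest in the 2 fetal HSC libraries, Hist2h3b is higher in every LMPP than in every HSC library, and Hist1h1b is highest in adult LMPP 3 (38.2) and fetal LMPP 1 (31.1).

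Among genes fixed as context, Ccne1, a cyclin of S phase entry, was the only called gene of 27 S phase and replication genes in this comparison (higher by 1.43, adjusted p = 0.0048). None of 18 G2 and mitosis genes was called, although 6 had an unadjusted p under 0.05. Nasp, a chaperone of free histones, was 1.30 higher (adjusted p = 0.00094), 1 of 19 tested supply genes. Of the 17 tested genes of histone mRNA processing and decay none was called, 1 had an unadjusted p under 0.05, and the stem-loop binding protein gene Slbp differed by -0.43 (adjusted p = 0.63) and Npat, the activator of histone transcription, by 0.07 (adjusted p = 0.95). Erythroblast markers moved with this comparison: their sum was 62.9 to 183 CPM in adult HSC and 1820 and 2057 in fetal HSC, and none of the 11 was at 0 in all libraries. The sum was carried by 4 beta-globin rows (Hbb-b1 from a mean of 14.04 to 309 CPM), which were the 4 of 9 tested that were called higher, and 3 of the 9 were negative. Their part in the histone differences was not tested.

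The count of called members in HSC depends on single libraries. Without fetal HSC 1 or without fetal HSC 2, which leaves 1 fetal HSC library and takes its spread from the other groups, no member was called. The share of all genes called fell as well, to 1.75% and 1.4%. DESeq2 called 26 members, and 10.5% of all genes. Without the 3 libraries that stood apart 22 members were called, and 16.2% of all genes. Over 20 alternatives Hist1h2bg lost its call in 2, and Hist1h1c, Hist1h2bq and Hist1h2br each in 6. Hist1h2bk lost its call in 8 and Hist1h2bl in 10.

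LMPP against HSC in adult marrow asks how a progenitor differs from the stem cell above it. 51 of 67 members were higher in adult LMPP and none was lower, where 7.76% of all genes were higher and 9.33% lower. An unadjusted p under 0.05 was found for 60 members and for 29.6% of all genes. The median log2 difference was 1.56, beside -0.05 over all genes. All 18 tested H2A rows were called, with 13 of 19 H2B, 7 of 12 H3, 11 of 13 H4 and 2 of 5 H1 members. In 58 members every LMPP library was above every HSC library, where this held for 13.7% of all genes.

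The member of lowest p was Hist2h2ac, an H2A gene of the Hist2 cluster. Hist2h2ac measured 6.02, 3.64 and 4.55 CPM in adult HSC and 17.9, 12.1 and 17.9 in adult LMPP, a log2 difference of 1.75 ± 0.28 (adjusted p = 0.0021). Hist1h2ap measured 3574, 2085 and 3888 CPM in adult LMPP, a log2 difference of 1.55 ± 0.26 (adjusted p = 0.0026). Adult LMPP 2 was the lowest of the 3 in both, and still above all adult HSC libraries. The 12 Hist1 H2A rows other than Hist1h2aa and Hist1h2al, Hist1h2ap and Hist1h2ao among them, differed by nearly the same amount, with a median of 1.57. The H2B gene Hist1h2bj measured 3.26, 1.89 and 2.29 CPM in adult HSC and 13.3, 6.69 and 8.12 in adult LMPP, a log2 difference of 1.92 ± 0.33 (adjusted p = 0.0033).

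Among the linker genes, Hist1h1e measured 8.49, 7.74 and 7.66 CPM in adult HSC and 20.7, 14.3 and 30.2 in adult LMPP, a log2 difference of 1.45 ± 0.29 (adjusted p = 0.0071). Hist1h1d rose by 1.79 ± 0.43 (adjusted p = 0.016). Hist1h1b measured 12.9, 10.2 and 38.2 CPM in adult LMPP and 6.12, 3.81 and 11.7 in adult HSC. The highest value of each group came from its library 3, both among those that stood apart, the ranges overlapped, and adjusted p was 0.12. Hist1h1a differed by 1.49 (adjusted p = 0.15) and Hist1h1c by 0.57 (adjusted p = 0.21). Chosen after their values were seen, the H2B genes Hist2h2be and Hist3h2ba differed by -0.07 and 0.06, the smallest differences of the 67.

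Of the S phase and replication genes 10 of 27 were higher in adult LMPP and none was lower, led by Cdc45, a part of the replicative helicase (0.77, adjusted p = 0.0033). Of the G2 and mitosis genes 15 of 18 were higher, led by Ccna2, the cyclin of S and G2 (1.01, adjusted p = 0.0040). Of 11 tested replication-independent histones 5 were higher and 1 was lower: H3f3a, an H3.3 gene, rose by 0.93 (adjusted p = 0.00041), and H1f0, a linker histone known from cells that have stopped dividing, was lower at 93.5 to 99.8 CPM in LMPP against 295 to 358 in HSC (adjusted p = 7.3e-05). H2afx rose by 1.26 (adjusted p = 0.0076), H2afz differed by 0.78 (adjusted p = 0.094) and H3f3b by -0.14 (adjusted p = 0.80). T and NK cell markers summed to 369 to 511 CPM in adult LMPP and 72.8 to 148 in adult HSC, with Cd3e at 0 in every library. That sum was carried by Nkg7 (means of 79.4 in HSC and 299 in LMPP) and Lck (13.4 and 121), 2 of the 3 that were tested of 7. Hepatocyte markers summed to 54.4 to 81.8 CPM in adult HSC and 219 to 282 in adult LMPP, mostly Trf (means of 49.3 and 246) with Alb at 0 in both, and macrophage markers to 15.4 to 46.8 and 68.4 to 76.8. The part of these lists was not tested. Calls fell to 28 without adult HSC 2 and to 26 without adult LMPP 1, and no member was called lower in either fit. All genes called fell from 17.1% to 11.8% and 11% in these fits.

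LMPP against HSC in fetal liver makes the same comparison before birth. 3 of 67 members were higher in fetal LMPP, where 8.21% of all genes were higher, and 1 was lower, where 9.85% were. The share higher was thus below that of all genes. The median log2 difference was 0.46, beside -0.08 over all genes, and by class 0.29 for H2A, 0.30 for H2B, 1.01 for H3, 1.21 for H4 and 0.60 for H1. In 32 members every LMPP library was above every HSC library (27.6% of all genes), and in 5 every one was below (33.3%).

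The 3 higher members were the H3 genes Hist2h3c1, Hist2h3c2 and Hist2h3b, the first 2 being 1 measurement. Hist2h3c1 measured 1.49 and 1.80 CPM in fetal HSC and 8.31, 4.62 and 5.10 in fetal LMPP, a log2 difference of 1.86 ± 0.47 (adjusted p = 0.022). Hist2h3b measured 0.83 and 1.07 CPM in fetal HSC and 3.66, 2.25 and 3.06 in fetal LMPP, a log2 difference of 1.65 ± 0.52 (adjusted p = 0.0497). This call was lost in 15 of 20 alternatives, with adjusted p = 0.080 without the 3 libraries that stood apart. These H3 genes were also called in adult marrow, by 1.93 and 1.65. The lower member was Hist1h1c, at 14.6 and 18.7 CPM in fetal HSC and 7.81, 6.13 and 7.18 in fetal LMPP, a log2 difference of -1.24 ± 0.31 (adjusted p = 0.020). Hist1h1c lost this call in 4 of 20 alternatives. Hist1h2ap was 2708 and 1900 in fetal HSC and 2128, 3062 and 3097 in fetal LMPP, which overlap, and its difference was 0.26 (adjusted p = 0.56).

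**Figure D4:**
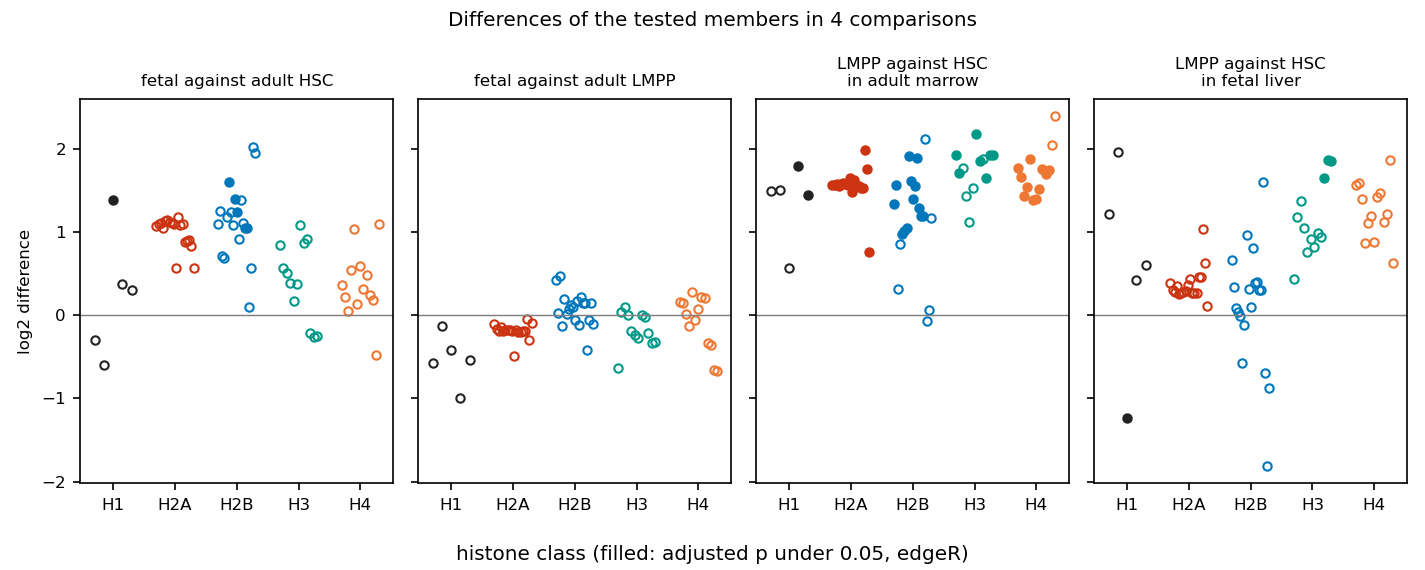
Log2 difference of each tested member by class in 4 comparisons, filled where the edgeR adjusted p was under 0.05. The median of the H2A points is 1.09 in fetal against adult HSC, -0.19 in fetal against adult LMPP, 1.56 in adult and 0.29 in fetal LMPP against HSC. All H3 and H4 points are above 0 in both LMPP against HSC comparisons.

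S phase genes were called here in 11 of 27 cases, all higher in fetal LMPP, with Mcm7 of the replicative helicase up by 0.86 (adjusted p = 0.0026), and G2 and mitosis genes in 7 of 18, all higher. H1f0 fell by 1.35 on the log2 scale (adjusted p = 0.00088), as in adult marrow. Erythroblast markers summed to 1820 and 2057 CPM in fetal HSC and 243 to 741 in fetal LMPP, with 6 of 9 tested lower. Macrophage markers summed to 22.5 and 29.0 against 79.7 to 172, but that sum was carried by Csf1r (means of 3.04 and 114 CPM), and 7 of the 8 tested were negative. Their part was not tested. No member was called without fetal HSC 1 or without fetal HSC 2, and leaving out a fetal LMPP library left 1 call (library 1) or 2 calls (library 2 or library 3). All genes called fell from 18.1% to 6.14% and 3.92% without a fetal HSC library, and to 13.7%, 10.6% and 13.5% without fetal LMPP 1, 2 and 3 in turn. DESeq2 called 13 members higher and 3 lower, and 24.6% of all genes in either direction.

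Fetal against adult LMPP gave no called member, where 7.08% of all genes were higher and 8.29% lower. DESeq2 also called none, where it called 22.5% of all genes. In edgeR 2 members had an unadjusted p under 0.05, where 30.3% of all genes had one. The median log2 difference was -0.13, beside 0.00 over all genes. Without the 3 libraries that stood apart it was -0.060, and 28 of 67 members changed sign, 16 of them H2A rows. The members of lowest p were Hist1h2bc, with 54.5, 54.7 and 47.3 CPM in adult and 83.0, 58.9 and 75.3 in fetal LMPP (0.47, adjusted p = 0.12), Hist1h1d (-0.99, adjusted p = 0.13) and Hist1h1e (-0.54, adjusted p = 0.23). Hist1h2bc did not overlap between the ages, and Hist1h1d did. Over the same libraries, 7 of 27 S phase genes were higher in fetal LMPP, led by Ccne1 (1.79, adjusted p = 0.00053), and 2 of 18 G2 and mitosis genes. H1f0 was 0.67 higher (adjusted p = 0.015). Without adult LMPP 2, 1 member was called lower, where 11.2% of all genes were called in either direction.

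Whether the age difference itself differed between HSC and LMPP was tested as an interaction. No member was called, where 0.387% of all genes were called higher and 0.543% lower, while 26 members had an unadjusted p under 0.05, as had 12.9% of all genes. DESeq2 called 3 members and 4.58% of all genes. The estimate was negative in 65 of 67 members with a median of -0.90, beside 0.01 over all genes. The lowest p belonged to Hist1h2bg (-1.58 ± 0.36, adjusted p = 0.083), Hist1h1c (-1.81 ± 0.42, adjusted p = 0.083) and Hist1h2ao (-1.29 ± 0.38, adjusted p = 0.17). Without the 3 libraries that stood apart 2 members were called, both lower, and 5.46% of all genes in either direction. The different counts of called members in HSC and LMPP are therefore not shown to be a difference between the cell types by this fit.

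Open chromatin was taken from 4 peak lists, 1 per group, so there is no replicate spread and no test. Within 500 bases of the start site listed in the count table, a peak was found for 60 of 69 members in adult HSC (87.0%), 61 in fetal HSC (88.4%), 59 in adult LMPP (85.5%) and 52 in fetal LMPP (75.4%). Over all 24967 start sites the shares were 54.3%, 53.6%, 51.5% and 48.8%. The fetal LMPP list was the shortest, with 37156 peaks against 48286 to 53068 in the others. Neighbouring members share peaks: 48, 48, 47 and 39 distinct peaks lay in the member windows.

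A peak in all 4 lists was found for 52 members, among them Hist1h2bg, Hist1h2bk, Hist1h1c and Hist2h3b, whose RNA levels differed between groups. How many of all start sites had a peak in all 4 lists, or in none, was not counted. For 8 members no list held a peak. They include Hist1h2ao, Hist1h2ap, Hist1h2bq and Hist1h2br, and none of these 4 had a peak at its RefSeq start site either. The list names in the labels carry a mapping quality of 10, a kind of filter that can remove reads of near-identical copies, so no peak there does not show closed chromatin. Hist1h1t and Hist1h2aa, the members left out of the RNA test, also had none.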

How the data were processed

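RNA and ATAC libraries came from the same 4 sorted populations. The RNA table holds expected counts per gene over exons, deposited by the authors unnormalized; 29.2% of member values are not whole, so values were rounded. The peak lists hold a score and a signal per peak, deposited by the authors as 1 list per group. The submitters' processing notes name STAR, RSEM, HOMER, Bowtie2 2.3.5, SAMtools 1.9, MACS2 and mm10, without roles. No source used here says how reads of repeated copies were assigned.

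Counts were filtered (filterByExpr), TMM scaled and fitted with edgeR 4.0.16 (quasi-likelihood, 4 group means, 11 libraries, common biological coefficient of variation 0.372) in R 4.3.3, with Benjamini-Hochberg adjustment over 14720 genes at 0.05. The fit was tested on simulated data. DESeq2 1.42.0, other scalings, filters and rounding, 2-group fits, a replicate block and leaving out libraries were alternatives. Members and lists were chosen with earlier results of these data known. Named members are those called (up to 12 of lowest p), or the 3 of lowest p where fewer than 3 were called, the 10 of highest level per kilobase and all H1 genes; of the context lists, up to 3 called genes each, plus Slbp, Npat, H1f0, H3f3a, H3f3b, H2afz and H2afx. Of the members called in the same direction in more than 1 comparison, promoters are shown for Hist1h2bg, Hist1h2bk and Hist2h3b; the others are not shown. Protein sequences were not used here.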

Additional observations from a re-analysis of the deposited data

Results flagged for a closer look

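In 2 members the LMPP and HSC libraries were separated in opposite directions at the 2 ages. The share of all genes separated in this way was not counted. Among all genes, 13.7% were higher in every adult LMPP than in every adult HSC library. In fetal liver 33.3% were lower in every LMPP library. The fetal separations rest on 2 HSC libraries. Hist1h1c was higher in every adult LMPP than in every adult HSC library (log2 difference 0.57, edgeR adjusted p = 0.21). Its closest adult libraries were at 7.79 CPM in LMPP and 7.51 in HSC. In fetal liver Hist1h1c was lower in every LMPP than in every HSC library (-1.24). Hist1h2bg likewise differed by 1.01 in adult marrow and by -0.58 in fetal liver. The test of the difference between ages gave an adjusted p of 0.083 for each (edgeR), which misses the threshold, and with DESeq2 0.0011 for Hist1h1c and 0.00100 for Hist1h2bg. No group held the 4 libraries needed to look for a single outlying one.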

How the results depend on the processing

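Counts of called members are given with the share of all genes called in the same fit. In fetal against adult HSC (6 called, 4.95% of all genes) DESeq2 gave 26 (10.5%), the fit of only those groups 1 (4.16%), and the fit without the 3 libraries that stood apart 22 (16.2%); leaving out 1 library gave 0 to 17 (1.4% to 5.46%), with 1 without adult HSC 2, 2 without adult HSC 3, 13 without adult LMPP 2, 17 when fetal LMPP 1 was dropped and 2 when fetal LMPP 3 was. In fetal LMPP against HSC (4, 18.1%) these were 16 (24.6%), 9 (29%) and 8 (38.4%), with 0 to 9 on leaving out 1 library (9 without adult HSC 3, 25.1%). In adult LMPP against HSC (51, 17.1%) the fit of only those groups gave 28 (13.2%), and leaving out 1 library 26 to 49 (11% to 21.2%). In fetal against adult LMPP (0, 15.4%) leaving out 1 library gave 0 to 1 (9.27% to 21.7%), with 1 without adult LMPP 2 (11.2%). The interaction (0, 0.931%) gave 3 with DESeq2 (4.58%) and 2 without the 3 libraries (5.46%). Leaving out 1 library of a group of 3 gave 0 each time (0.435% to 1.16%). The cause was not tested. Other scalings, filters and rounding kept each count within 1.5 times.

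Of the values of the named members, 15 turned direction under an alternative, none of them called. Over all 67 members, dropping the 3 libraries turned 10 in fetal against adult HSC, 28 in fetal against adult LMPP, 0 and 2 in adult and fetal LMPP against HSC and 4 in the interaction, none of them called. Hist1h1a in fetal against adult HSC turned to 0.11 with a replicate block and to 0.28 when the 3 libraries were dropped, and ran from -0.71 to 0.29 on leaving out 1 library (positive without adult HSC 3 or fetal HSC 1). In fetal against adult LMPP it ran from -0.90 to 0.082 (positive without adult LMPP 3), and its interaction from -0.86 to 0.38 (positive when adult HSC 1, fetal HSC 2 or adult LMPP 3 was dropped). Hist1h1b in fetal against adult LMPP turned to 0.14 with the block and 0.092 when the 3 libraries were dropped, and ran from -0.74 to 0.69 on leaving out 1 library (positive when library 3 of either age was dropped). Its interaction ran from -0.15 to 1.29 (negative when adult HSC 3 or fetal LMPP 1 was dropped). Hist1h2ap in fetal against adult LMPP turned to 0.11 without the 3 libraries. Hist2h3b in fetal LMPP against HSC lost its call in 15 of 20 alternatives. Hist1h2bg in fetal against adult HSC lost it in 2 and Hist1h2bl in 10.

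With the replicate number as a block the called members were 6, 0, 46, 4 and 0. The order is fetal against adult HSC and LMPP, LMPP against HSC in adult and fetal cells, and interaction. In that order 3.77%, 14.1%, 15.7%, 14.3% and 0.584% of all genes were called in that fit. Whether the numbers pair the samples is not settled. Of the same-numbered pairs 3 of 15 correlated over 0.1 (range -0.207 to 0.472), as did 8 of 30 other pairs (range -0.372 to 0.289). The 3 were adult HSC with adult LMPP, at 0.153, 0.306 and 0.472 for numbers 1, 2 and 3, so pairing in adult marrow is possible. Restricting to peaks at or above the median score left 52 members with a peak in adult HSC, 50 in fetal HSC, 53 in adult LMPP and 45 in fetal LMPP, where 42.6%, 42.7%, 38.9% and 36.4% of all start sites had one. RefSeq start sites, added after seeing the data, gave 53, 54, 52 and 47 of 62 in adult HSC, fetal HSC, adult LMPP and fetal LMPP. The share over all RefSeq start sites was not counted. Counting each overlapping pair once was also added after seeing the data, and those counts are not given here.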
